A study of Mus musculus with 2 samples.

Results

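White committed adipocyte progenitors (wCAPs) are one of 7 clusters that the authors named among cultured precursor cells of newborn mouse white adipose tissue. A cell was taken as a wCAP where the authors' table of barcodes and clusters gave it that name. The table used here covers 1999 of the 4331 white precursor cells that passed the authors' filter, the first ones in the order of the matrix, and 674 of them were wCAPs (33.7%, exact Clopper-Pearson 95% interval 31.6 to 35.8%). The other 1325 labelled cells were 462 wAPC 1, 260 wAPC 2, 270 wAPC 3, 62 wAPC 4, 256 wFAPLs (white fibro-adipogenic progenitor-like cells) and 15 differentiating wFAPLs. APC stands for adipocyte progenitor cell.

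The white library came from subcutaneous white fat of C57/BL6J pups, at postnatal day 0 by the labels while the published methods give the day after, males and females pooled, whose stromal vascular cells were grown to confluency in 4 days and captured with droplet-based 3′ single-cell chemistry. A second library held cells of interscapular brown fat from pups of the same strain and age, grown the same way. No genotype, drug or differentiation cocktail separated the groups. Because each depot was a single pooled library, animals and cultures were not replicated and no test was possible, and the cells had left their tissue for culture.

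A level is the sum of a gene's unique molecular identifiers (UMIs) over the cells of a group, given as CPM (the sum relative to the group's UMI total, brought to the same total for every group), with an exact 95% Poisson interval. A log2 ratio compares 2 such levels and has an exact conditional binomial 95% interval. All intervals cover counting error only. The clusters had been made from the same counts, and the cluster had been named for its Pparg and Fabp4, so the ratios to other cells describe the wCAPs and test nothing. The wCAPs held 19390040 UMIs and the other labelled cells 37978170. Per cell, wCAPs had a median of 26992.5 UMIs, 5892 genes and 3.06% mitochondrial UMIs, beside 27269 UMIs, 5872 genes and 3.00% in the other cells, so depth hardly differed. The libraries shared 9 barcodes, and 2 of the wCAP barcodes also occurred in the brown library. No doublet caller was applied.

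Committed preadipocytes are mesenchymal cells that have turned on part of the fat cell programme but store little lipid. Commitment centres on the nuclear receptor PPARγ, which works with C/EBP factors and binds DNA together with RXR, and PPARγ targets include genes of fatty acid uptake and binding such as Lpl and Fabp4. The transmembrane protein Dlk1 (Pref-1) marks earlier preadipocytes and restrains the process, and contractile stress fibres and the coactivators YAP and TAZ are known to hold precursors in a fibroblast-like state.

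The Pparg gene, Ensembl ENSMUSG00000000440, has several start sites in RefSeq, and the downstream one of the pair printed here is that of Pparg2, the form best known from adipocytes. Sequencing from the 3′ end does not tell the starts apart, so the level given for Pparg below covers all of them. The promoters are shown because Pparg, together with Fabp4, gave wCAPs their name. Each runs from 250 bases before to 50 bases after the start on the plus strand of GRCm38.p6. Capitals mark CCAAT, the C/EBP-type motif TTGCNNAA and the GC box GGGCGG, searched on both strands, and no position was shared between motifs. TATAAA, the E-box CACGTG and the direct repeat bound by PPAR and RXR (spacer of 1 base) were searched too and had no match in either printed window.
Pparg upstream start, chr6:115360894-115361193: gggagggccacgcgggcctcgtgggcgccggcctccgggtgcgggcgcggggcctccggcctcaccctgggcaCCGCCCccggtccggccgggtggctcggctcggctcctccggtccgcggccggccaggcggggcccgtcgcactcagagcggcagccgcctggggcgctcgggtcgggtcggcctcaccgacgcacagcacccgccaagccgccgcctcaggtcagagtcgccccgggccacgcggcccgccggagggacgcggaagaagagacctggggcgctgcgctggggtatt
Pparg downstream start, chr6:115421816-115422115: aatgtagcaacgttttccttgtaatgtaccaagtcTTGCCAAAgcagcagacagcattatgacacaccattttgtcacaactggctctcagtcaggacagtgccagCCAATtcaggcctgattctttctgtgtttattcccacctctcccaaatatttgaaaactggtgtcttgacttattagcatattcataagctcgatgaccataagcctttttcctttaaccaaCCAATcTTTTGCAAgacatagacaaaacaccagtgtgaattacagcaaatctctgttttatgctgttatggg
The upstream window was 80.3% G and C and held 1 GC box and no CCAAT or C/EBP-type match. The downstream window was 40.3% G and C and held 2 CCAAT matches and 2 C/EBP-type matches, the nearer ones at bases -22 to -18 and -16 to -9 counted from the start. A further RefSeq start lies between them, and its window, chr6:115362099-115362398, which is not printed, was 62.7% G and C and held 1 TATAAA match at bases -29 to -24, 1 CCAAT match and 2 GC boxes. Of 32851 RefSeq promoters of this length, 37.4% held CCAAT, 10.8% the C/EBP-type motif and 35.7% the GC box, while 13.6% held TATAAA, 7.15% the E-box and 0.0396% the PPAR/RXR motif. These matches describe letters and not bound sites. RefSeq promoters were matched for 3 of the 6 markers used for wCAPs and 23 of the 33 genes named from the comparison with all other cells or as markers.

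The 6 markers of wCAPs were Pparg, Cyp7b1, Tenm4, Ptn, Ank3 and Lpl. In GRCm38, Pparg lies at chr6:115360951-115490399, Cyp7b1 at chr3:18071950-18243338 and Tenm4 at chr7:96171246-96911093. Ptn lies at chr6:36714929-36810220, Ank3 at chr10:69398773-70027438 and Lpl at chr8:68880491-68907448. All are protein-coding genes, and their counts cover the whole gene. Pparg, Cyp7b1, Tenm4 and Lpl had their highest level in wCAPs among the 7 white clusters, while Ptn and Ank3 were highest in wAPC 2.

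The level of Pparg was 92.5 CPM in wCAPs (88.3 to 96.9), 77.6 in differentiating wFAPLs and 9.48 in wFAPLs. Among the progenitor clusters, wAPC 3 had 49.5 CPM, wAPC 4 had 44.8, wAPC 1 had 39.3 and wAPC 2 had 20.0. The interval of the 15 differentiating wFAPLs, 54.6 to 107, overlapped that of wCAPs, and those of the other 5 clusters did not. Against all other labelled cells, at 32.2 CPM (30.4 to 34.0), the log2 ratio was 1.52 (1.42 to 1.63). At least 1 Pparg UMI was seen in 69.3% of wCAPs and 39.2% of the other cells. After each cell was thinned to 10000 UMIs, with no cell too shallow to enter, these shares were 43.0% and 20.0%. Among 47 glial cells of the same library, whose median depth was 20672 UMIs, the shares were 6.38% as counted and 2.13% thinned.

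Cyp7b1, an oxysterol hydroxylase, reached 262 CPM in wCAPs (255 to 270), followed by wAPC 2 with 172, wAPC 4 with 105, wAPC 3 with 89.0, wAPC 1 with 49.8, wFAPLs with 38.4 and differentiating wFAPLs with 10.5. Its interval in wCAPs lay above those of all other clusters, and the log2 ratio to all other cells was 1.69 (1.62 to 1.75). Lpl, the lipoprotein lipase that frees fatty acids for uptake, stood at 589 CPM in wCAPs (578 to 600), above wAPC 2 with 379, wAPC 3 with 349, wAPC 4 with 324, wAPC 1 with 299, wFAPLs with 187 and differentiating wFAPLs with 161. Its log2 ratio was 0.96 (0.92 to 1.00). In glial cells Cyp7b1 was at 7.31 CPM, and 10.6% of them had a Lpl UMI beside 97.5% of wCAPs.

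Tenm4, a teneurin adhesion protein, was at 86.8 CPM in wCAPs (82.7 to 91.1) and lower in every other cluster, from wAPC 4, whose interval was 42.7 to 65.2, down to 37.2 in wAPC 3 and 2.10 in differentiating wFAPLs. The log2 ratio was 1.01 (0.91 to 1.11), and 54.5% of wCAPs had a Tenm4 UMI beside 35.1% of the other cells and 2.13% of glial cells. Ptn, the heparin-binding growth factor pleiotrophin, was at 2759 CPM in wCAPs, below 4393 in wAPC 2 and 3111 in wAPC 3 and above 2368 in wAPC 4, 1766 in wAPC 1 and 505 in wFAPLs. Its log2 ratio to all other cells was 0.26 (0.25 to 0.28), which was short of 1.5-fold. Glial cells held 378 CPM of Ptn and 95.7% of them had a UMI, so the share of cells with Ptn said little.

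Ank3, the membrane scaffold ankyrin-G, was at 130 CPM in wCAPs (125 to 136), below 153 in wAPC 2 (144 to 162) and above wAPC 3 with 89.3, wAPC 1 with 81.2, wAPC 4 with 64.8 and wFAPLs with 17.7. The log2 ratio was 0.64 (0.56 to 0.72). Its level in glial cells was 1406 CPM. For each of the 6 markers the log2 ratio of wCAPs was larger over wFAPLs, from 1.03 for Tenm4 to 3.29 for Pparg, than over wAPC 2, from -0.67 for Ptn to 2.21 for Pparg.

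**Figure D1:**
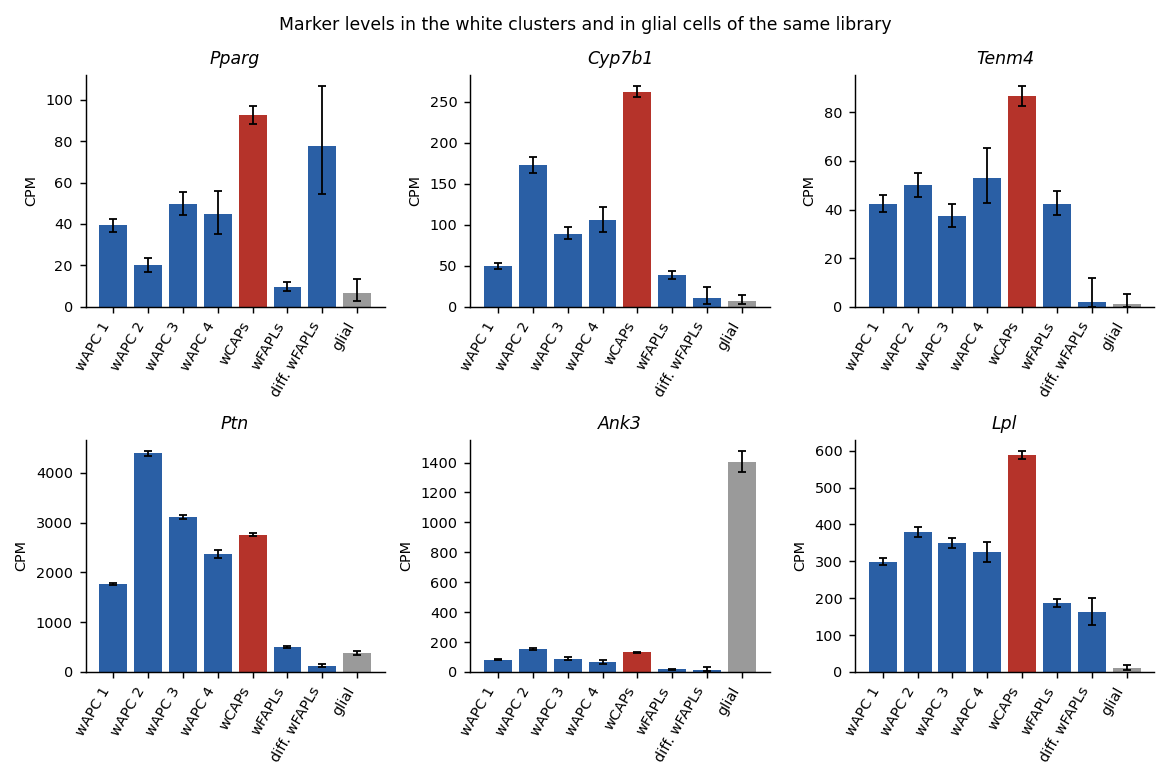
Level in CPM of the 6 markers (vertical axes, one panel per gene) in the 7 white clusters and in glial cells of the white library; bars are summed levels and whiskers exact 95% Poisson intervals. wCAPs (red) stand highest of the white clusters for Pparg, Cyp7b1, Tenm4 and Lpl, wAPC 2 stands highest for Ptn and Ank3, and glial cells (grey) reach 1406 CPM for Ank3.

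General precursor genes gave another order. Pdgfra, the receptor used to gate mesenchymal progenitors, was at 142 CPM in wCAPs and 102 in the other cells, a log2 ratio of 0.48 (0.41 to 0.55), and was highest in wAPC 2 at 160. Pdgfrb was at 158 CPM and 151 CPM, with a log2 ratio of 0.06 and an interval that reached down to 0. Dlk1 was at 369 CPM in wCAPs and 537 in the other cells (log2 ratio -0.54, -0.58 to -0.50). wCAPs held less Dlk1 than any wAPC cluster, the closest being wAPC 4 at 438 CPM, and more than wFAPLs at 188. Fabp4, the fatty acid binding protein of adipocytes, was at 85.9 CPM in wCAPs and 59.4 in the others (0.53, 0.44 to 0.62). The other cells' level of Fabp4 rested in part on the 15 differentiating wFAPLs, at 1006 CPM. With every other cluster given the same weight, its log2 ratio was -1.22. Among the larger clusters Fabp4 was at 73.3 CPM in wAPC 1, 50.3 in wAPC 3, 37.2 in wFAPLs and 10.9 in wAPC 2.

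Across all genes, 9075 reached 10 CPM in wCAPs or in the other labelled cells. At 1.5-fold or more, 229 of them were higher in wCAPs (2.52%) and 184 were lower (2.03%). The median log2 ratio over all 9075 genes was 0.01. At 50 CPM or more, the genes with the largest ratios on the high side were Cyp7b1, Sncaip, Dlgap1, Pparg, Ccser1, Slc5a3, Bmper, Gpm6b, Pcsk5, Nav3, Plcb1, Maf, Tenm4, Apoe and Dapk1. Sncaip, which encodes synphilin-1, was at 103 CPM in wCAPs and 33.4 in the other cells (log2 ratio 1.63, 1.52 to 1.73), and the next cluster was wAPC 3 at 60.3. Dlgap1, a scaffold protein known from synapses, was at 198 CPM and 67.5 CPM (1.55, 1.48 to 1.63), and wFAPLs came next at 132. Bmper, a secreted BMP modulator, was at 217 CPM and 96.9 CPM (1.16, 1.10 to 1.23), and wAPC 3 came next at 111. The cluster next to wCAPs was thus not the same for all of these genes.

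Slc5a3, a myo-inositol transporter, was at 90.3 CPM in wCAPs and 40.2 in the others, and Maf, a bZIP transcription factor, at 87.7 and 41.8. The proprotein convertase Pcsk5 was at 200 and 90.2 CPM, and the apolipoprotein Apoe at 107 and 53.6. For the 15 genes the log2 ratio ranged from 0.99 for Dapk1 to 1.69 for Cyp7b1. Over 2-fold, 56 genes were higher in wCAPs and 62 lower.

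On the low side, the 15 leading genes included Myh11, Col8a1, Actg2, Cemip, Ccn2, Lmod1, Crabp1, Tm4sf1, Inhba, Cnn1, Adm, Pdlim1, Crim1 and Myl9. Myh11, the smooth muscle myosin heavy chain, was at 6.14 CPM in wCAPs and 62.7 in the other cells (log2 ratio -3.35, -3.63 to -3.09). Its level was 2522 CPM in the 15 differentiating wFAPLs, 102 in wFAPLs and 25.6 in wAPC 1, but 7.38 in wAPC 3, 3.09 in wAPC 2 and 2.36 in wAPC 4. Without the differentiating wFAPLs the log2 ratio was -2.35, and with every other cluster weighing the same it was -6.18. wCAPs therefore stood among the Myh11-poor clusters and not apart from them. Ccn2, a matricellular protein and YAP/TAZ target, was at 48.7 CPM in wCAPs and 177 in the others (-1.86, -1.96 to -1.76), with 305 CPM in wAPC 1 and 27.1 in wAPC 3. Cemip, a hyaluronan-degrading protein, was at 28.3 and 112 CPM (-1.98, -2.11 to -1.85), with a ratio of -2.70 in male cells alone. Crabp1, a retinoic acid binding protein, was at 24.4 and 67.6 CPM (-1.47, -1.61 to -1.32).

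**Figure D2:**
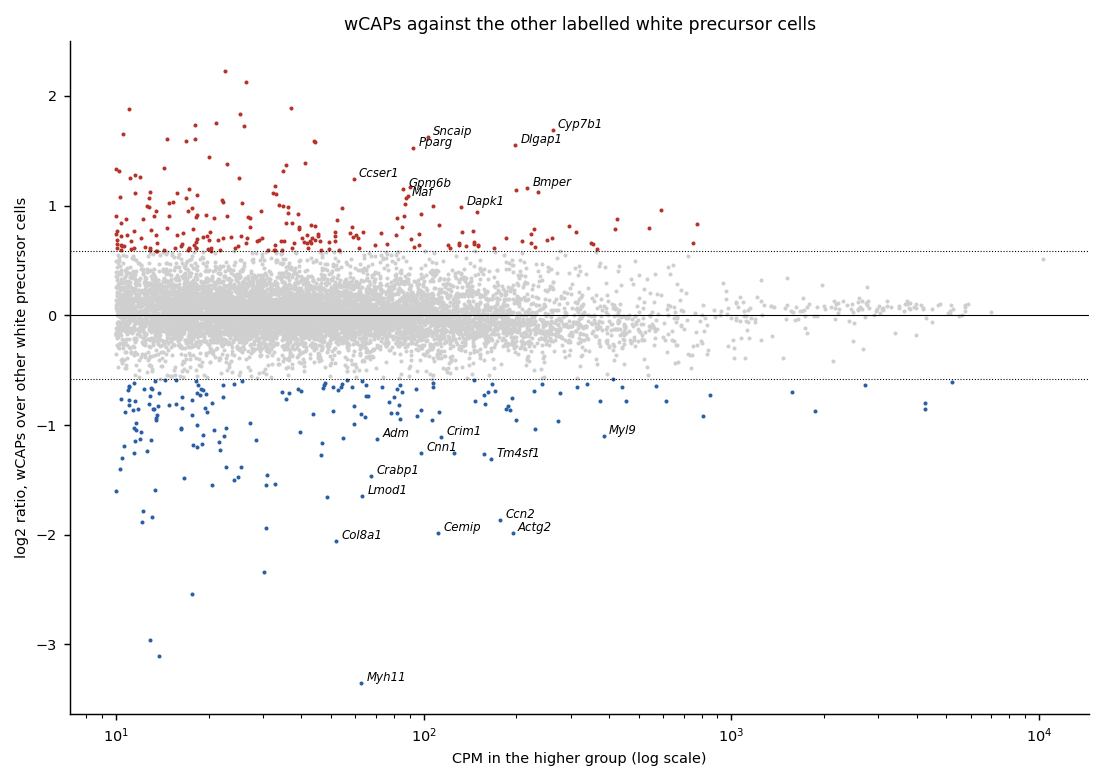
Log2 ratio of wCAPs over the other labelled white precursor cells (vertical axis) against the CPM of the higher group (horizontal log axis) for the 9075 genes tested; red and blue points lie past 1.5-fold (dotted lines), and names are given to those of the 15 leading genes each way that could be written without overlap. Most genes lie near 0, and Myh11 at -3.35 lies lowest.

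Gene lists were read beside these background values. Of 30 pro-adipogenic transcription factors and cofactors, 25 reached 10 CPM, 5 were higher in wCAPs, none was lower, and their median log2 ratio was 0.35. The 5 were Pparg, Zfp423, Prdm16, Nrip1 and Cebpa. Zfp423, a zinc finger factor that acts in preadipocyte determination, was at 39.1 CPM and 20.6 CPM (0.92), and gave 0.41, short of the fold, when every other cluster weighed the same. Its level was 47.7 CPM in wAPC 4 and 46.1 in differentiating wFAPLs, with intervals that overlapped that of wCAPs. Prdm16, a coregulator known from brown and beige fat, was at 18.4 and 9.77 CPM (0.91), and Nrip1, a nuclear receptor corepressor, at 229 and 132 CPM (0.79). Cebpa was at 34.7 CPM and 23.0 CPM (0.59, 0.45 to 0.74), with 35.4 CPM in wFAPLs, and wCAPs and wFAPLs did not differ beyond counting error (log2 ratio -0.03, -0.24 to 0.18). Cebpa passed the fold only just, and was short of it at 0.58 with the median of all genes set to 0, 0.55 with every cell weighing the same, 0.53 in thinned cells, 0.50 with every other cluster weighing the same and 0.20 in male cells alone. With every other cluster weighing the same, 3 of the 25 factors were higher. Of 16 anti-adipogenic factors at 10 CPM or more, only the homeobox gene Meox2 passed the fold, at 11.3 CPM in wCAPs and 31.0 in the others (-1.45), and the list's median was 0.02. With labels carried over, in G1 cells or in female cells, 2 of the 16 were lower. Dlk1, also in this list, gave -0.67 in female cells, past the fold, and -0.15 in male cells.

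Markers that in other work describe committed, Icam1-positive preadipocytes had the highest median of the lists, 0.75, with 7 of 12 higher in wCAPs and none lower. They were Pparg, Sparcl1, Ggt5, Apoe, Lpl, Col15a1 and Cebpa, and all but Ggt5 also sit in other lists, so this is no separate support for the cluster's name. Col15a1, a basement membrane collagen, was at 86.0 CPM in wCAPs and 46.0 in the others (0.90), but at 230 CPM in wAPC 4. Ggt5, a gamma-glutamyltransferase, was at 18.3 and 8.58 CPM (1.09). With every other cluster weighing the same, Ggt5 gave 0.45, Sparcl1 0.52 and Col15a1 0.41, all short of the fold as was Cebpa, so that 3 of 12 were higher and 2 lower. Of the markers of interstitial, Dpp4-positive progenitors, 10 were measured, none was higher and Igfbp6 (-0.92) and Anxa3 (-0.76) were lower, with a median of -0.35. Anxa3 was short of the fold in male cells alone (-0.54). The counts were 0 higher and 5 lower of 10 with every other cluster weighing the same and 1 higher and 4 lower of 11 in G1 cells.

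For lipid uptake, binding and storage, 3 of 16 genes were higher, namely Apoe, Lpl and Lpin1, and 1 was lower, Fabp5, at 357 CPM in wCAPs and 613 in the others (-0.78). Lpin1, a phosphatidate phosphatase of triglyceride synthesis, was at 13.3 and 7.06 CPM (0.91), with a ratio of 1.63 in male cells alone. Plin2, a lipid droplet coat protein, was at 104 and 72.4 CPM (0.52), short of the fold. None of 11 fatty acid synthesis genes passed the fold in either direction (median 0.04). Fasn, the fatty acid synthase, was at 60.4 CPM and 64.5 CPM, and Scd1, a desaturase, at 60.2 and 66.0. Among 23 genes of cholesterol synthesis and uptake none passed the fold either, with a median of -0.11 that became 0.10 when every other cluster had the same weight. Of 6 oxysterol and sterol export genes, Cyp7b1 and the cholesterol exporter Abca1 were higher, Abca1 at 76.1 and 48.5 CPM (0.65), though at 0.48 with every other cluster weighing the same.

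Genes of mature adipocytes were nearly absent from wCAPs. None of 15 reached 10 CPM in either group, and Cidec, Lep, Lgals12 and Pck1 had no UMI in wCAPs, where 3 UMIs, the limit a count of 0 allows, correspond to 0.155 CPM. Their summed level was 10.5 CPM in wCAPs and 3.84 in the other cells, from 204 and 146 UMIs. These UMIs were unevenly spread, since 3 of the 674 wCAPs carried 68 of the 204 (33.3%), and the sum without those 3 cells was 7.05 CPM. Plin1, the perilipin of large droplets, had 19 UMIs in 4 wCAPs and 13 of them in a single cell. That cell also held 7 Plin4, 2 Adipoq, 6 Pparg, 24 Fabp4 and 61 Lpl UMIs, and 1 Dlk1 UMI beside a wCAP median of 6. The cell with the most UMIs of the list, 31, owed 26 of them to Car3, a carbonic anhydrase abundant in fat, and had 65 Fabp4 UMIs, the most of any wCAP. Such cells were few, and they were picked after their values had been seen.

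Several signalling genes passed the fold. The list of PDGF, FGF and VEGF genes also held other signalling genes, such as Ntrk2 and Gas6. In it, 3 of 20 were higher and none was lower (median 0.07). With every other cluster weighing the same, 4 were higher and 3 lower of 22. The counts were 5 higher and 1 lower of 21 in male cells alone and 4 higher and 1 lower of 22 in G1 cells. Fgf10, a mesenchymal growth factor, was at 37.1 CPM in wCAPs and 10.0 in the others (1.89, 1.71 to 2.07), with 16.7 in wAPC 2, 16.1 in wAPC 3 and 4.46 in wFAPLs. Ntrk2, the BDNF receptor, was at 20.1 and 7.37 CPM (1.44), and Gas6, a ligand of TAM receptors, at 223 and 141 CPM (0.66). Among 18 Wnt pathway genes, 4 were higher and none was lower (median 0.23). Sfrp2, a secreted frizzled-related protein, was at 771 CPM in wCAPs and 434 in the others (0.83), the R-spondins Rspo2 and Rspo3 gave 0.68 and 0.62, and the receptor Fzd4 gave 0.67. Fzd4 fell short of the fold with every other cluster weighing the same (0.44), and Rspo3 in female cells alone (0.56). Sfrp2 was highest in wCAPs of all 7 clusters, with wAPC 3 next at 547 CPM.

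In the insulin and IGF list, 1 of 23 was higher and 3 were lower (median 0.10). Igf1 was at 223 CPM in wCAPs and 133 in the others (0.74). Igfbp2 was at 1.60 and 13.8 CPM (-3.11), a ratio that was -2.05 without the differentiating wFAPLs and -6.00 with every other cluster weighing the same. Insr, the insulin receptor, was at 50.7 and 36.7 CPM (0.47). BMP and TGF-beta genes went both ways, with 2 of 25 higher, the BMP antagonist Chrdl1 (0.88) and the coreceptor Tgfbr3 (0.76), and 3 lower, among them Inhba (-1.25). With every other cluster weighing the same, 3 were higher and 6 lower of 26. Bmper, named above with a ratio of 1.16, was not in this list. Among cytokine, chemokine and complement genes, haptoglobin Hp was at 25.3 and 7.08 CPM (1.84) and C4b at 10.2 and 4.11 CPM (1.31), while Cxcl14 (-2.54) and Spp1 (-0.73) were lower. Spp1 was short of the fold in female cells alone (-0.48) and with labels carried over to all precursor cells (-0.56), and Chrdl1 in male cells alone (0.50). Spp1 was at -1.76 in male cells and -1.43 with equal cluster weights. Cxcl14 ranged from -1.93 with labels carried over to -3.47 in male cells. Of the 491 Hp UMIs, 266 were in 10 wCAPs (54.2%), and its ratio was 2.46 in G1 cells. Retinoid genes gave 1 of 8 higher and 3 lower, among the latter Crabp1 and Aldh1a3. Rarres2, the higher one, gave 0.74, but -0.19 when every other cluster weighed the same and 0.55 with labels carried over.

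Contractile and YAP/TAZ genes had the lowest median of the lists with 10 or more measured members, with 12 of 22 lower, none higher and a median of -0.72. Acta2, smooth muscle actin, was at 2352 CPM in wCAPs and 4251 in the others (-0.85), Tagln, transgelin, at 1024 and 1869 (-0.87), and Tpm1, a tropomyosin, at 967 and 1574 (-0.70). Ccn1, another YAP/TAZ target, was at 233 and 258 CPM (-0.14). Mural cell markers moved with this result: 4 of 5 measured ones were lower, their summed level was 47.9 CPM in wCAPs and 135 in the others, and the most abundant was Notch3 in wCAPs, at 18.4 CPM, and Myh11 in the others. Without the differentiating wFAPLs the median of the contractile list was -0.61. The part of mural or muscle-like cells among the others was not tested. Of 9 FAPL genes that the study chose on these same cells, 6 were lower in wCAPs, including Cryab, a small heat shock protein, at 85.5 and 147 CPM (-0.78). With every other cluster weighing the same, the ratios of Acta2, Tpm1 and Cryab were -1.59, -1.36 and -2.08.

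Of 31 fibrillar collagen and matrix genes, 1 was higher, the proteoglycan Vcan at 750 and 475 CPM (0.66), and 1 lower, Thbs1 at 426 and 808 CPM (-0.92). Basement membrane collagens differed among themselves, since Col15a1 was higher, if not with equal cluster weights, while Col4a1 (-0.78) and Col4a2 (-0.70) were lower. Of 29 neural adhesion and guidance genes 4 were higher, Tenm4, the netrin receptor Unc5c (0.87), Opcml (0.82) and Ank3, and Ptprz1 was lower (-2.34). Unc5c gave 0.06 when every other cluster weighed the same and 0.38 in male cells alone, both short of the fold. The list had 4 higher and 4 lower of 28 in G1 cells. Of 17 p53 targets 3 were higher and none was lower (median 0.32), Trp53inp1 at 54.3 and 27.5 CPM (0.98), Eda2r (0.92) and the cycle inhibitor Cdkn1a at 146 and 92.5 CPM (0.65). Cdkn1a gave 0.58 with labels carried over and 0.56 in thinned cells, just short of the fold, while 6 of the list were higher and 1 lower in male cells alone. Thermogenic genes were represented by 5 genes, of which Esrrg was higher (1.12) and Ckb lower (-0.89). Of 19 immediate early and dissociation genes, Fosb was higher (0.69) and Hspb1 lower (-0.88). With every other cluster weighing the same, that list had 1 higher and 4 lower of 20. With that weighting, Hspb1 gave -2.41, Ptprz1 -3.23, Ckb -1.72, Col4a1 -1.46 and Col4a2 -1.29. None of 18 Hox and regional genes passed the fold, with a median of 0.04. The list of CD142 regulatory cell markers held 1 lower member of 7, Meox2, with F3, the gene of CD142 itself, at 622 and 582 CPM (0.10).

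**Figure D3:**
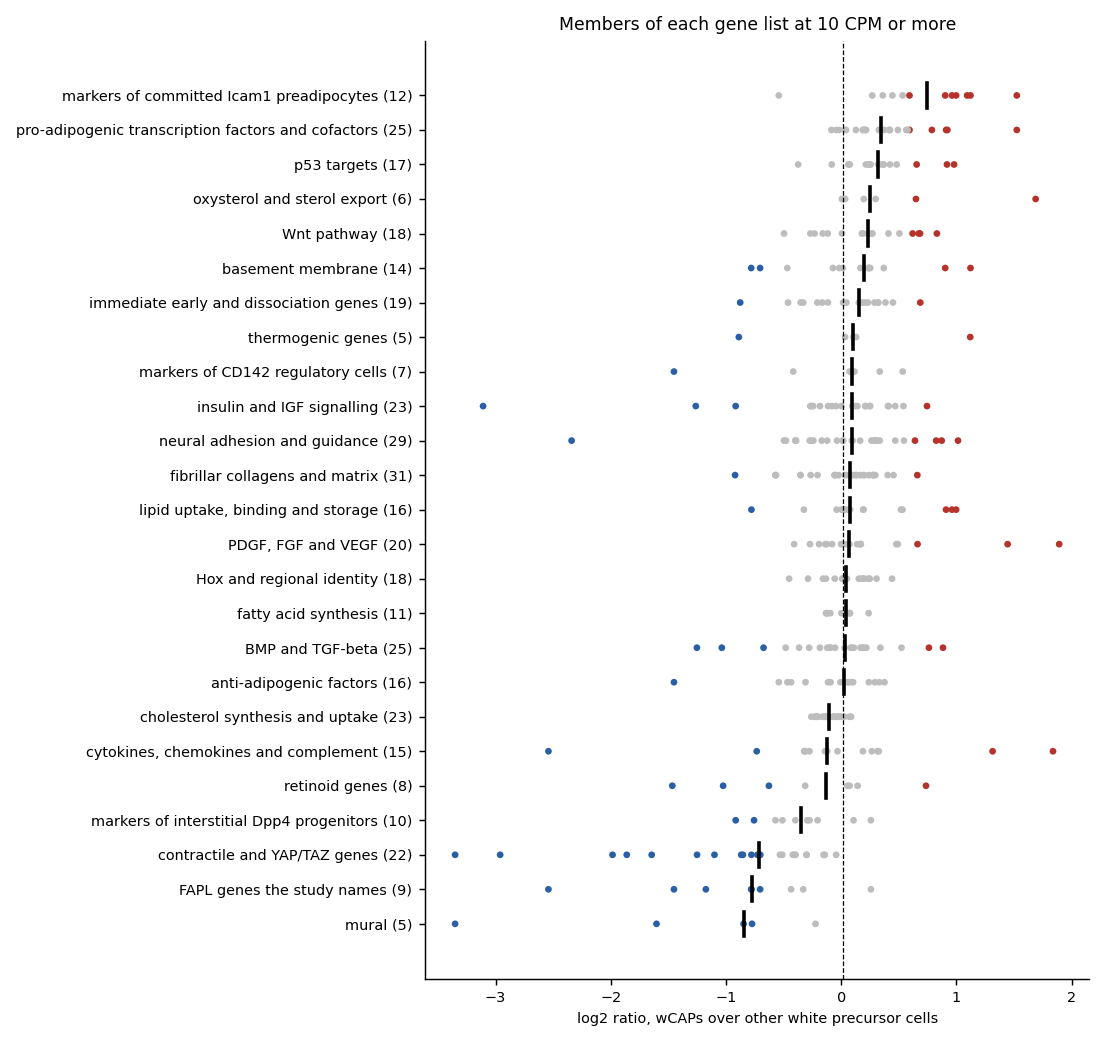
Log2 ratio of wCAPs over the other labelled white precursor cells (horizontal axis) for list members at 10 CPM or more, 1 row per list with the number of members in parentheses; red and blue points lie past 1.5-fold, black bars are list medians and the dashed line is the median of all genes tested. The Icam1 preadipocyte list lies furthest right, with a median of 0.75, and the mural list furthest left, with -0.85, a value that is sensitive to the weight of the 15 differentiating wFAPLs.

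Markers of glia and leukocytes were scarce in wCAPs and in the other cells. Sox10 and Ptprc, the defining markers of glia and leukocytes, had no UMI in the 674 cells. The summed glial markers came to 3.30 CPM in wCAPs and 2.26 in the other cells, and the summed myeloid markers to 4.64 and 7.87 CPM, with Csf1r the most abundant at 2.22 in wCAPs. Endothelial markers summed to 9.95 CPM and 11.4 in the other cells, with Tek the most abundant. The 6 mural markers summed to 47.9 CPM in wCAPs and 135 in the other cells, and 60.5% of wCAPs and 65.7% of the others had a UMI of at least 1 of them. Myod1, Myf5, Myog and Pax7, Msln, Upk3b and Lrrn4, and Krt14, Krt5 and Cdh1 were at 0 in wCAPs.

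The genes higher in wCAPs were long. Their median span from first to last annotated base was 115 kb, beside 28.8 kb for all genes tested and 28.7 kb for the genes lower in wCAPs. Long genes were nevertheless frequent on both sides. Spans over 100 kb made up 54.1% of the higher genes, 31.5% of the lower ones and 16.6% of all genes tested. Of genes spanning over 300 kb, 16.3% were higher and 5.13% lower, whereas of genes up to 10 kb 1.31% were higher and 2.67% lower. Genes over 100 kb took 14.2% of the UMIs of wCAPs and 13.0% of those of the other cells, with 14.9% in wAPC 2. Malat1, a nuclear long noncoding RNA, was at 10302 CPM in wCAPs and 7209 in the others, and the ribosomal protein genes took 19.8% and 18.9% of the UMIs. Cell Ranger of the release used by the authors counts intronic reads unless told otherwise, and long genes have more intron. The part of intronic reads in these ratios was not tested. Pparg (129 kb), Cyp7b1 (171 kb), Tenm4 (740 kb) and Ank3 (629 kb) belong to the long genes, whereas Lpl (27.0 kb), Apoe (3.08 kb) and Maf (24.9 kb) do not.

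**Figure D4:**
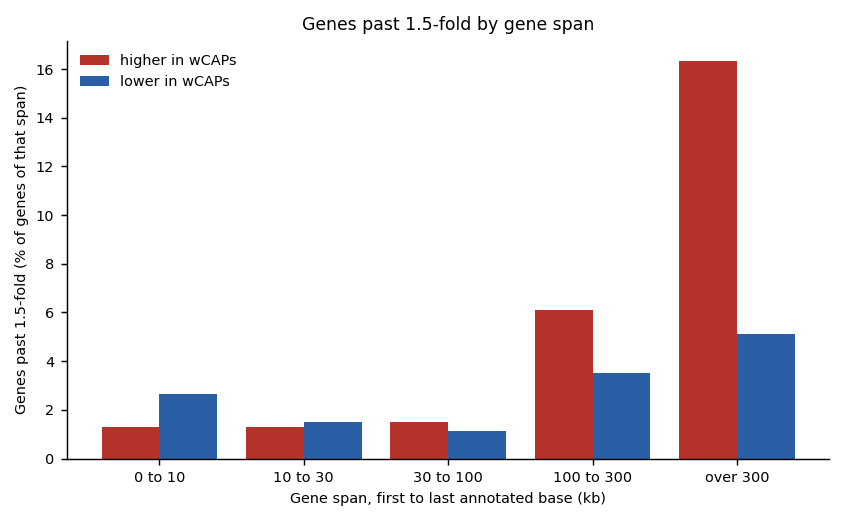
Share of genes past 1.5-fold (vertical axis, % of the genes of that span) by gene span in kb (horizontal axis), higher in wCAPs in red and lower in blue. The share higher goes from 1.31% of genes up to 10 kb to 16.3% of genes over 300 kb, and the share lower from 2.67% to 5.13%.

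Against single clusters, wCAPs lay closest to wAPC 2. Across genes at 10 CPM or more, which are not independent replicates, Spearman's rho was 0.976 with wAPC 2, 0.971 with wAPC 3, 0.966 with wAPC 1, 0.962 with wFAPLs, 0.944 with wAPC 4 and 0.779 with differentiating wFAPLs. The 15 differentiating wFAPLs and 62 wAPC 4 had the smallest UMI totals. The genes named next were at 50 CPM or more in the group where they were higher. Over wAPC 2, 243 genes were higher in wCAPs (2.67%) and 297 lower (3.26%), led by Fabp4 at 85.9 and 10.9 CPM (2.97), Col15a1 (2.60), Pparg (2.21), Dlgap1 (2.08) and the plexin Plxna4 (1.61). wAPC 2 held more Cpa6, a carboxypeptidase, at 134 CPM beside 15.3 in wCAPs (-3.12), and more C1qtnf7 (-1.98). Over wAPC 1, 591 genes were higher (6.51%) and 296 lower (3.26%), led by Pcsk5 (2.62), Sncaip (2.48) and Cyp7b1 (2.40), with Ccn2 (-2.64) and Ptchd4 (-2.45) at the other end. Over wFAPLs, 389 were higher (4.23%) and 412 lower (4.48%), led by Pparg at 92.5 and 9.48 CPM (3.29), Ank3 (2.88), Cyp7b1 (2.77) and Sema3a, a guidance ligand (2.76), with Myh11 (-4.06), Serpinb1a (-3.18) and Meox2 (-3.07) at the other end.

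Among the 30 nearest labelled neighbours of a wCAP in the space of 10 cycle-corrected components, 80.0% were wCAPs, 6.77% wAPC 1, 6.12% wAPC 2, 4.96% wAPC 3 and 1.51% wFAPLs. Of the labelled cells, 33.7% were wCAPs, 23.1% wAPC 1, 13.0% wAPC 2, 13.5% wAPC 3 and 12.8% wFAPLs, and relative to these shares wAPC 2 and wAPC 3 were more frequent neighbours than wAPC 1. No wCAP had a differentiating wFAPL as a neighbour. Fewer than 50% of the neighbours were wCAPs for 31 wCAPs (4.60%), and 107 (15.9%) had wCAP neighbours only. When labels were carried to all 4331 precursor cells, 1502 (34.7%) came out as wCAPs. With labelled cells held out, 96.9% of wCAPs got their name back and 90.3% of the cells called wCAPs were wCAPs. The clusters and the neighbours rest on the same counts, so this mixing describes how sharp the labels are.

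By expression scores of S and G2/M genes, 71.1% of wCAPs were in G1 (67.5 to 74.5%), 13.2% in S and 15.7% in G2/M, beside 58.3%, 17.0% and 24.7% of the other cells. Marker levels in wCAPs differed with phase, though not all in the same way. Pparg was at 104 CPM in G1, 92.1 in S and 53.7 in G2/M (G2/M over G1 -0.95, -1.17 to -0.73). In the other cells, a pool of 6 clusters, Pparg was at 29.4, 26.0 and 42.8 CPM, so G1 was not the high phase of that pool. The clusters of the pool differed in phase. In wAPC 3, where Pparg was at 49.5 CPM, 51.5% of cells were in G2/M. The G2/M share of the remaining clusters ranged from 13.3% in differentiating wFAPLs to 19.7% in wAPC 1. Whether Pparg differed with phase within any of these clusters was not tested. Cyp7b1 was at 315 CPM in G1, 131 in S and 178 in G2/M, Tenm4 at 106, 59.3 and 39.0, and Lpl at 656, 499 and 421. Ptn was at 2884, 2119 and 2814 CPM, thus lowest in S. Ank3, at 137, 103 and 126 CPM, did not differ between G2/M and G1 beyond counting error (-0.12, -0.27 to 0.03). Fabp4 was highest in S, at 83.0, 118 and 70.9 CPM (S over G1 0.51, 0.33 to 0.69). With G1 cells alone the log2 ratio of Pparg over the other cells was 1.82.

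Sex could be called for 653 wCAPs from Xist and Y-linked genes, and 19.8% were male, beside 20.9% of the called other cells. Pparg was at 71.0 CPM in male wCAPs (62.5 to 80.3) and 98.0 in female ones (93.1 to 103), while in the other cells it was at 39.3 in males and 29.9 in females. The log2 ratio of wCAPs over others was 0.85 (0.61 to 1.10) in male and 1.71 (1.59 to 1.83) in female cells. For Cyp7b1 it was 2.19 in male and 1.58 in female cells, with male and female wCAPs at 269 and 264 CPM. Male and female cells came from different animals of a pool, so sex and animal cannot be told apart.

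Within wCAPs the markers were unevenly spread over cells. After thinning to 10000 UMIs, the genes with the largest variance over mean at a mean of 0.5 or more were Ptn, Malat1, Ccl2, Acta2, Actb, Cyp7b1, Ghr, Slit2, Dlgap1 and Ube2c. The median over 3613 such genes was 1.13, and Ptn had 23.2. Ptn ranged from 1.65 UMIs at the 5th percentile over a median of 21.5 to 83.3 at the 95th. Cyp7b1 had a median of 1 and a 95th percentile of 12, with 51 UMIs in the highest cell (variance over mean 8.21). The chemokine Ccl2 was at 0 in the median wCAP and reached 42, and 32.8% of wCAPs had any. Pparg had a mean of 0.91, a median of 0 and a highest value of 27. Its variance over mean was 4.23, beside 2.00 in the other cells, whose mean was only 0.30. This measure was larger in the other cells for Ptn (26.6), Malat1, Acta2 (32.5, beside 12.7 in wCAPs), Actb and Slit2. It was smaller there for Ccl2, Cyp7b1, Ghr, Dlgap1 and Ube2c. Before thinning, the 10 wCAPs with the most Pparg UMIs held 365 of 1794 (20.3%), up to 88 in 1 cell. Without those 10 cells, left out after their values were seen, the log2 ratio of Pparg was 1.22 (1.11 to 1.33). The other cells were all kept, so this ratio could only fall.

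Principal components of the wCAPs alone gave 3 axes. The first carried 6.55% of the variance and was led by the cycle genes Top2a, Mki67, Hmgb2, Birc5 and Diaph3, with r = 0.93 to the G2/M score over the 674 cells of this library. The second, at 3.56%, set ribosomal protein genes such as Rpsa and Rpl13 against long genes such as Rbms3, Sptbn1 and Gpc6. The third, at 1.90%, set Acta2, Tagln, Actb, Tpm1 and Actg1 against Mir99ahg, Ghr, the growth hormone receptor, Vcan, Nfia and Gas2l3. Cyp7b1 and Pcsk5 were among the 10 leading genes at the latter end. Acta2 and Tagln, lower in wCAPs than in the other cells, thus also varied among wCAPs.

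bCAPs, the cluster given the matching name in the brown library, had 296 of 1999 labelled brown cells. White and brown differ in depot, in library and, by the published methods, in digestion time, which was longer for brown. These cannot be told apart, so each cluster was set against the other precursor cells of its own library. The ratios stand side by side. Over the other brown cells, 407 of 9071 genes were higher in bCAPs (4.49%) and 227 lower (2.5%). Of 8789 genes tested on both sides, 187 were higher in wCAPs and 323 in bCAPs, and 86 were higher in both, which is 46.0% of the former and 26.6% of the latter. Another 41 were lower in both (25.9% and 19.4%). Pparg was at 92.5 CPM in wCAPs and 92.8 in bCAPs, with log2 ratios of 1.52 and 0.85. Lpl gave 0.96 and 0.93, Sncaip 1.63 and 1.77, Slc5a3 1.17 and 1.43, and Apoe 1.00 and 1.27. Fgf10 gave 1.89 and 1.18, though it reached only 7.44 CPM in bCAPs.

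Several other wCAP genes did not pass the fold in bCAPs. Cyp7b1 was at 29.0 CPM in bCAPs and 26.4 in the other brown cells (0.13, -0.07 to 0.33). Maf gave -0.12 there, Dlgap1 0.29 and Pcsk5 0.27, and Ptn gave -0.55. Hp, which had the largest bCAP ratio among genes at 50 CPM or more, was at 308 CPM in bCAPs and 20.6 in the other brown cells (3.91), far above its 25.3 CPM in wCAPs. Fabp4 was at 302 CPM in bCAPs and 85.9 in wCAPs. Myh11 was at 13.0 CPM in bCAPs and 14.8 in the other brown cells (-0.18), beside the -3.35 of the white side.

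**Figure D5:**
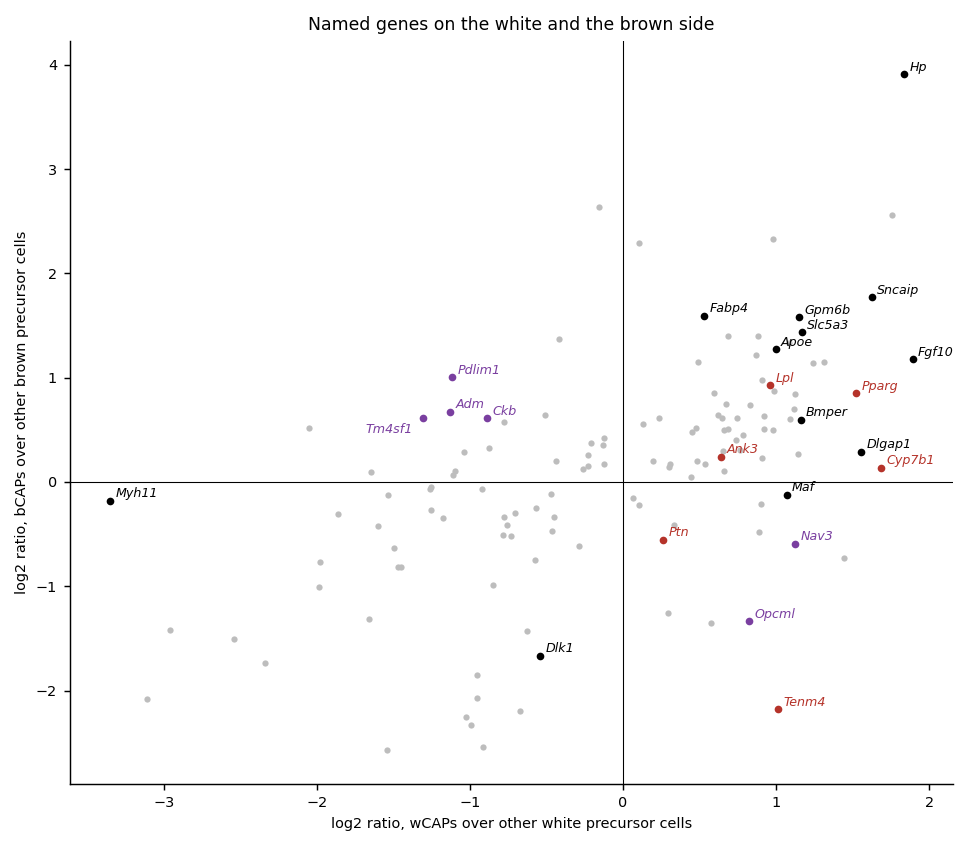
Log2 ratio of bCAPs over the other brown precursor cells (vertical axis) against that of wCAPs over the other white precursor cells (horizontal axis) for the named genes, 1 point per gene, markers in red and genes past 1.5-fold in opposite directions in purple except Tenm4, which is a marker. Pparg, Lpl and Sncaip lie above 0 on both axes, and Tenm4 lies at 1.01 and -2.18.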

How the data were processed

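The white and the brown library hold droplet-based single-cell RNA-seq counts. The authors used Cell Ranger 7.0.1 for alignment and UMI counting, and the deposited matrices hold these counts without normalization, for 5261 white cells (144451047 UMIs, median 26239 per cell) and 7009 brown cells (205551320 UMIs). Values are from 1 library per depot, so no test, SE or p-value was computed.

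White cells with 3900 to 7700 genes, 1.7 to 5% mitochondrial UMIs and 6000 to 60000 UMIs were kept, counting genes found in at least 3 cells, which left 4407 cells. Seurat 5.3.0 in R 4.3.3 was used to remove 47 glial and 29 myeloid cells (2000 variable genes, 10 components, resolution 0.5), score the cycle and regress it. Cluster names are the authors', from their source data. UMIs were summed per cluster with Python 3.11.15, numpy 2.4.6, scipy 1.17.1 and pandas 2.3.3. A gene was called past 1.5-fold at 10 CPM or more in either group. Cells were thinned to 10000 UMIs for shares. Gene positions and spans are from GENCODE for GRCm38.

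Named genes are the 6 markers, the 15 with the largest ratio each way at 50 CPM or more, up to 4 per list, 5 per cluster comparison and the 10 most variable. Other list members that passed the fold, and the well-known members Fasn, Plin2, Insr, Ccn1, F3 and Tpm1, were named after their values had been seen. The members and lists were chosen with earlier results of these data known. Some genes are not reported here. Gene spans and the cells carrying adipocyte UMIs were examined after the values had been seen. Sums and intervals were tested on simulated data.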

Additional observations from a re-analysis of the deposited data

Results flagged for a closer look

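A closer look is due for 7 named genes that passed 1.5-fold in opposite directions on the white and the brown side. There is 1 library per depot, and the difference between depots was not tested. Tenm4, the teneurin among the wCAP markers, had a log2 ratio of 1.01 over the other white cells and -2.18 in bCAPs over the other brown cells, with 86.8 CPM in wCAPs and 6.70 in bCAPs. Nav3, a neuron navigator, gave 1.12 and -0.59, and Opcml, an opioid-binding cell adhesion molecule, gave 0.82 and -1.33. The opposite order was seen for Tm4sf1, a tetraspanin-like membrane protein (-1.31 and 0.61), Adm, the peptide adrenomedullin (-1.13 and 0.67), Pdlim1, a PDZ and LIM domain protein (-1.12 and 1.00), and Ckb, the brain-type creatine kinase (-0.89 and 0.61). Over all 8789 genes tested on both sides, 4 of the 187 higher in wCAPs were lower in bCAPs (2.14%). Of all genes tested on the brown side, 2.5% were lower in bCAPs. Another 10 of the 158 lower in wCAPs were higher in bCAPs (6.33%), beside 4.49% of all genes tested on the brown side. Opposite directions were thus about as frequent as, or little above, the shares over all genes.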

How the results depend on the processing

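The number of genes higher in wCAPs, 229 as reported, ranged from 210 to 317 with labels carried over, thinned cells, G1 cells, every cell or every other cluster weighing the same, no differentiating wFAPLs, a median ratio of 0, female cells or a minimum of 5 CPM. It was 487 in male cells, 2654 with no minimum and 56 at 2-fold. The number lower, 184 as reported, was 370 with every other cluster weighing the same, 353 in male cells, 1826 with no minimum and 62 at 2-fold, and otherwise 170 to 268. With every other cluster weighing the same, the 15 differentiating wFAPLs count as much as the largest cluster. Of 128 named genes over 1152 values, only Rarres2 among those past the fold changed sign, from 0.74 to -0.19 under that weighting. Fabp4, at 0.53 short of the fold as reported, was -1.22 there. Apart from the Rarres2 value, 327 values moved by more than counting error. In all, 47 values changed by over 1.5 times, that of Rarres2 among them. Leaving out the 10 wCAPs with the most UMIs of the gene, an alternative chosen after seeing the data, gave 1.22 for Pparg, 1.52 for Cyp7b1 and 0.29 for Fabp4. The other cells were all kept, so these ratios could only fall. The top 10 of the other cells held 11.5% of their Pparg, 13.6% of their Cyp7b1 and 23.7% of their Fabp4 UMIs. In wCAPs the top 10 held 20.3%, 12.6% and 17.0%. Under equal cluster weights there were also 1 higher and 3 lower of 16 anti-adipogenic factors, 3 higher and 4 lower of 16 cytokine, chemokine and complement genes, 4 higher and 3 lower of 17 lipid uptake and storage genes, 1 higher and 3 lower of 31 fibrillar collagen and matrix genes, 0 higher and 3 lower of 15 basement membrane genes, 1 higher and 2 lower of 6 thermogenic genes, 1 higher and 2 lower of 7 CD142 cell markers and 0 higher and 1 lower of 18 Hox and regional genes, and 1 of 6 sterol export genes was higher. In thinned cells 5 Wnt genes were higher and 1 lower, and in male cells 3 insulin and IGF genes were higher. The share of wCAPs was 34.7% with carried labels. The cause of these shifts was not tested. Depth limits genes under 10 CPM, and 15 differentiating wFAPLs and 62 wAPC 4 are few. No paired analysis was possible because each depot was 1 library.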
